A study of Equus caballus with 28 samples.

Results

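The miR-30 family was represented in these horse libraries by 4 miRNAs, eca-miR-30b, eca-miR-30c, eca-miR-30d and eca-miR-30e. They were taken as all entries of the table of known mature miRNAs that are named eca-miR-30 with a letter from a to e, which gave 4 of 690 known entries and 4 of 844 when the 154 predicted miRNAs are included. The table has no entry for the letter a. All 4 members had reads in every one of the 28 libraries.

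MicroRNAs are short RNAs that guide Argonaute proteins to messenger RNAs, mostly by pairing of the bases near their 5′ end, called the seed. The members of the miR-30 family share their seed and differ elsewhere, so that they are expected to share many targets. The family is known for its abundance in epithelia, where targets with mesenchymal functions, among them members of the Snail group of transcription factors, have been described, and for roles in autophagy and cell differentiation.

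Endometrium, uterine fluid (UF), embryos and the fluid of the yolk sac (YS) were taken from 5 Warmblood mares 13 days after ovulation, the window in which the equine conceptus signals its presence to the mare. Every mare was treated with hCG to induce ovulation and was either inseminated, always with semen from the same stallion, or left unbred as a cyclic control, in random order. Pregnant endometrium, pregnant UF, embryo and YS fluid were each represented by 5 libraries, 1 per mare. Cyclic endometrium and cyclic UF were each represented by 4 libraries, from mares 1 to 4. Replicate numbers stand for mares, so that mare 5 has no cyclic counterpart. The UF was absorbed with a tampon, spun out with sterile water and used as supernatant, and the embryonic tissue is what remained after the YS fluid was aspirated and the capsule removed. RNA of both fluids was extracted with a serum and plasma kit and RNA of both tissues with a column kit followed by a small RNA cleanup, so that a difference between a tissue and a fluid cannot be told apart from a difference between extraction kits.

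Depth differed widely between the groups. Library totals, as counted over all 844 miRNAs, lay between 61836 and 590593 reads in endometrium, between 62087 and 226308 reads in UF, between 28204 and 44768 reads in embryo and between 4352 and 14531 reads in YS fluid. A count of 3 reads, taken as the detection floor, corresponded to 689 CPM (counts scaled to a common library total) in the shallowest YS library. The 8 miRNAs listed as markers of embryonic stem cells summed to between 12019.6 and 65295 CPM in embryo and reached at most 32.2 CPM in any endometrial or uterine fluid library, so the conceptus and uterine labels were separated by these markers. Among the embryos, the library of mare 1 had the lowest sum of these markers. Among the pregnant endometria, the library of mare 5 had the highest sum of the 7 mesenchymal and smooth muscle miRNAs, 56910 CPM against 17516 to 26406 CPM in the other mares. Its sum for the 2 endothelial miRNAs was also the highest, 4816 CPM against 1598 to 2735 CPM. These are whole tissue and fluid samples, in which fewer cells of a type and less of a miRNA per cell cannot be told apart.

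By library total, the family had a higher mean share of the reads in the conceptus than in the uterus. With TMM scaling (trimmed mean of M-values) the family was lowest in YS fluid, and its embryo mean lay among the uterine means. Summed over the 4 members, it made up 2.72% ± 0.332 (SD, n = 4) of the reads in cyclic endometrium, 2.75% ± 0.980 (n = 5) in pregnant endometrium, 2.84% ± 0.795 (n = 4) in cyclic UF and 2.59% ± 0.321 (n = 5) in pregnant UF. It made up 8.16% ± 2.24 (n = 5) in embryo and 5.20% ± 1.34 (n = 5) in YS fluid. The ranges of the 4 uterine groups overlapped. The embryos lay between 4.33% and 9.79% of reads and the YS fluids between 3.55% and 7.01%. The lowest embryo, from mare 1, and the YS fluids of mares 2 and 4 were below the highest pregnant endometrium, which came from mare 5 at 4.39%. With TMM scaling over all 28 libraries the summed level of the family was 44226 CPM ± 16328 (SD, n = 5) in embryo and 22652 ± 6427 (n = 5) in YS fluid. It was 44922 ± 16559 (n = 5) in pregnant endometrium, where mare 5 stood at 73760 CPM, and 39252 ± 8590 (n = 4) in cyclic endometrium. In UF it was 42108 ± 13164 (n = 4) in cyclic and 38144 ± 4959 (n = 5) in pregnant cycles. By median, embryo was the highest group, at 48714 CPM against 37302 CPM in pregnant endometrium. The order of the groups thus depended on the scaling, most clearly for YS fluid.

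The level of eca-miR-30e set the embryo apart from YS fluid, and less clearly from the uterus. As CPM of the library total, it stood at 15282, 45948, 60907, 63598 and 34514 in the embryos of mares 1 to 5. In the YS fluid of the same conceptuses it stood at 10019.8, 4843, 5357, 4596 and 9359 CPM. The embryo value was higher in every mare and the groups did not overlap, with mare 1 showing the smallest gap. In pregnant endometrium eca-miR-30e was at 5776, 7687, 5486, 8009 and 17418 CPM, so that only mare 5 reached above the lowest embryo. In pregnant UF it was at 4965, 9666, 7111, 6399 and 8147 CPM, in every mare below the embryo. In the cyclic cycles of mares 1 to 4 it was at 6275, 8251, 9991 and 6757 CPM in endometrium and at 5009.5, 7994, 2625 and 7906 CPM in UF. Ordered by group mean, embryo (44049 CPM) was followed by pregnant endometrium (8875 CPM), cyclic endometrium (7818 CPM), pregnant UF (7258 CPM), YS fluid (6835 CPM) and cyclic UF (5884 CPM), and every pair of neighbours in this order overlapped in range. With TMM scaling embryo was again the highest by mean (24500 CPM) and YS fluid the lowest (2964 CPM). In that scaling the embryos of mares 1 and 5 were at 7836 and 13369 CPM. Both lay below the highest pregnant endometrium (29291.5 CPM) and the highest pregnant UF library (15036 CPM), and above every YS fluid (at most 4972 CPM). Among the known miRNAs eca-miR-30e ranked between the 4th and the 10th place in the embryos and between the 19th and the 37th place in YS fluid.

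The other members followed another order. The level of eca-miR-30c was 8864, 13581, 14778, 11708 and 21085 CPM in the embryos and 23204, 14459, 15230, 17004 and 13832 CPM in YS fluid, where the groups overlapped. In pregnant endometrium eca-miR-30c was at 3697, 5373, 3620, 4924 and 9775 CPM and in cyclic endometrium at 5870, 8444, 6267 and 6642 CPM. Both conceptus groups had higher CPM of eca-miR-30c than cyclic endometrium without overlap, while mare 5 made the pregnant endometrium overlap the embryos. With TMM scaling this order turned, to a mean of 9743 CPM in cyclic endometrium, 7272 CPM in embryo and 7202 CPM in YS fluid. The level of eca-miR-30d ranged from 15496 to 35465 CPM in YS fluid, from 18224 to 27678 CPM in embryo, from 8828 to 15640 CPM in endometrium and from 10213 to 20450 CPM in UF. It was the most abundant member by group mean in every group but the embryo. The least abundant member, eca-miR-30b, ranged from 417 to 1990 CPM over all 28 libraries, and every pair of neighbouring groups overlapped. In YS fluid it rested on 11, 10, 26, 3 and 11 reads, so that the library of mare 4 was at the detection floor.

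**Figure D1:**
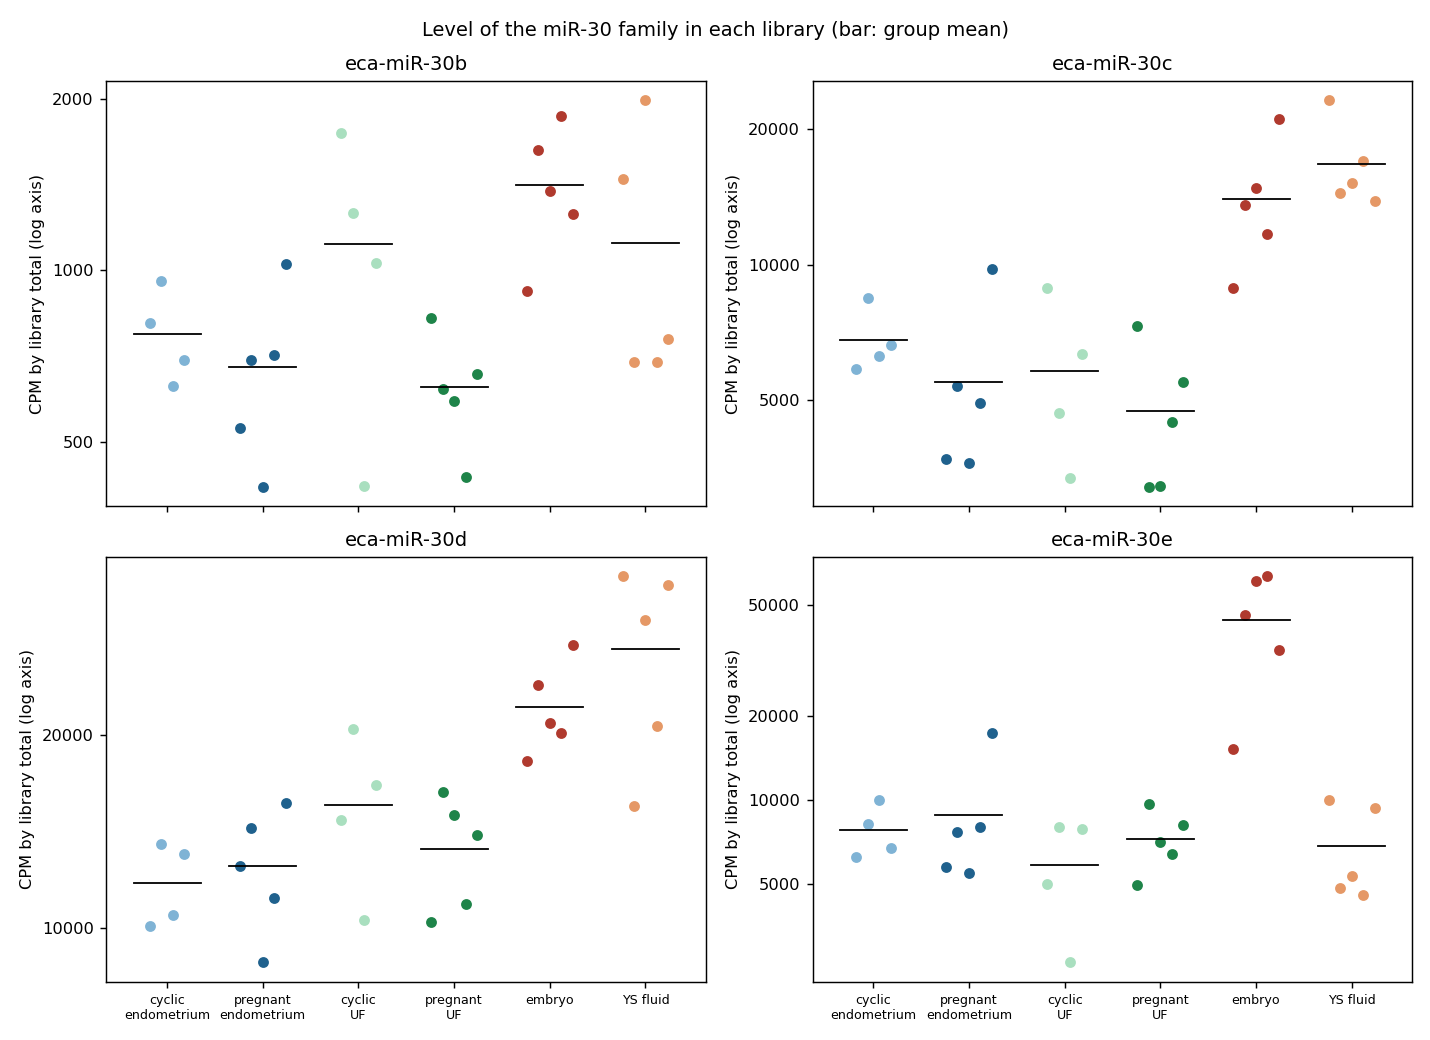
Level of each member in the 28 libraries as CPM of the library total on a log axis, with 1 point per library and a black bar at the group mean. In the panel of eca-miR-30e the embryos lie between 15282 and 63598 CPM and the YS fluids between 4596 and 10019.8 CPM, whereas in the panels of eca-miR-30b, eca-miR-30c and eca-miR-30d the same groups overlap.

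CPM depend on what else fills a library, and uterine and conceptus libraries are filled by different miRNAs. The share of each member within the family does not depend on the scaling and was therefore compared as well. In the embryos eca-miR-30e made up 35.3%, 54.0%, 62.2%, 65.4% and 40.8% of family reads. In YS fluid it made up 14.3%, 13.6%, 10.1%, 10.7% and 16.1%. The highest YS share was thus well below the lowest embryo share, and the means of the 4 uterine groups lay between those of embryo and YS fluid. The mean share of eca-miR-30e was 31.0% ± 5.48 (SD, n = 5) in pregnant endometrium, 28.8% ± 5.25 (n = 4) in cyclic endometrium, 27.8% ± 4.06 (n = 5) in pregnant UF and 20.0% ± 4.60 (n = 4) in cyclic UF. In each of the pregnant, cyclic and conceptus compartments the fluid had a lower mean share of eca-miR-30e than the tissue. The pregnant uterine groups overlapped, the cyclic ones came within 24.7% and 24.9% of each other without overlap, and embryo and YS fluid were far apart.

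Between embryo and YS fluid, the shares of eca-miR-30d and eca-miR-30c went the other way from that of eca-miR-30e. The share of eca-miR-30d averaged 29.0% in embryo, between 20.7% and 42.1%, and 51.7% in YS fluid, and these groups did not overlap. It was 55.5% in cyclic UF, 51.0% in pregnant UF, 47.0% in pregnant endometrium and 43.3% in cyclic endometrium. The share of eca-miR-30c was 33.2% ± 7.19 (SD, n = 5) in YS fluid and 17.7% ± 5.05 (n = 5) in embryo, with overlapping ranges. It lay between 22.9% and 27.1% in cyclic endometrium and averaged 20.7% in cyclic UF, 19.5% in pregnant endometrium and 18.8% in pregnant UF. The share of eca-miR-30b stayed between 1.77% and 3.79% as a mean of every group. Reads of a member also depend on how well its ends are ligated in library preparation, so these shares compare libraries and not numbers of molecules between members.

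**Figure D2:**
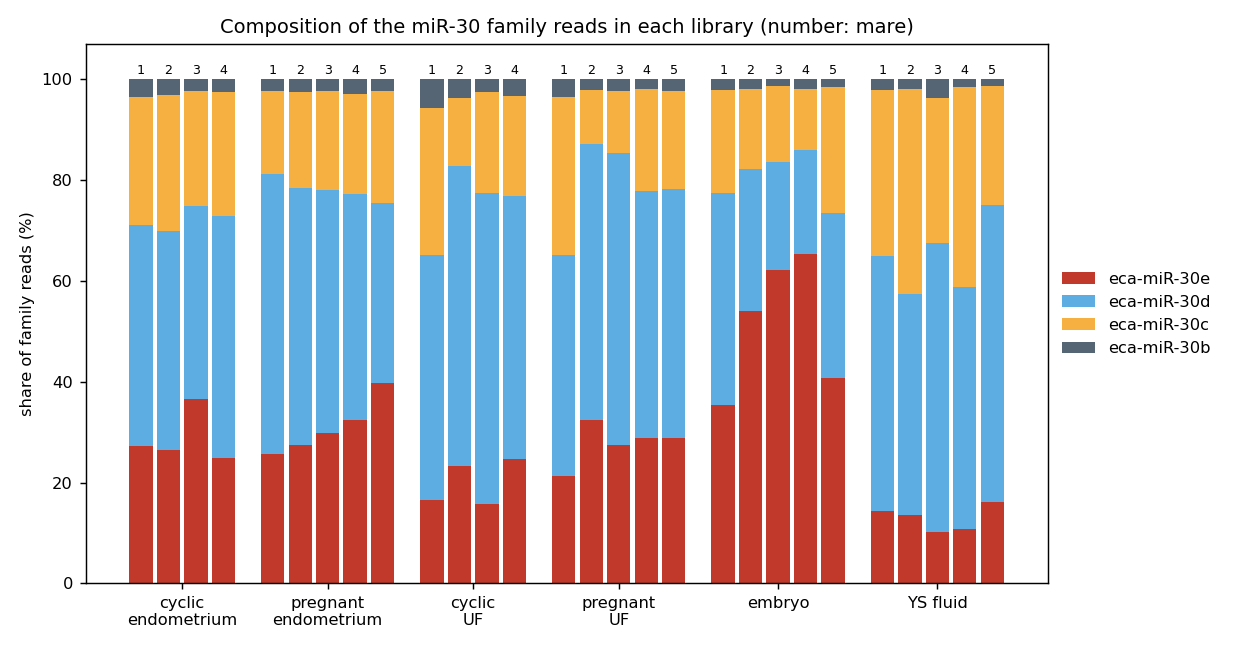
Share of family reads taken by each member, in percent, as 1 stacked bar per library with the number of the mare above it. The lowest segment, eca-miR-30e, takes 35.3% to 65.4% of the bar in the embryos and 10.1% to 16.1% in YS fluid.

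The ratio of eca-miR-30e to eca-miR-30c compares eca-miR-30e with a member of which a gene copy lies next to its own. In RefSeq (assembly TB-T2T), used here for neighbourhood only, MIR30C and MIR30E have no gene wholly between them and both lie within NFYC, which encodes a subunit of the transcription factor NF-Y, and within an uncharacterized gene. MIR30B and MIR30D are also neighbours and lie in no other gene. A further copy, MIR30C-2, lies elsewhere, and the single eca-miR-30c entry of the count table cannot be assigned to either copy. The ratio of eca-miR-30e to eca-miR-30c reads was 3.26 ± 1.62 (SD, n = 5) in embryo, between 1.64 and 5.43. In YS fluid it was 0.413 ± 0.158 (n = 5), between 0.270 and 0.677, lower than in the embryo of the same mare in 5 of 5 conceptuses. The YS ratios also lay below all pregnant endometria, between 1.43 and 1.78, and narrowly below all pregnant UF libraries, whose lowest was 0.681. They overlapped cyclic UF, whose lowest ratio was 0.565. These ratios were chosen after the values had been seen and are given without a test.

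The embryo was also separated from YS fluid against eca-miR-30d, from the other gene pair. The ratio of eca-miR-30e to eca-miR-30d was 2.02 ± 1.01 (SD, n = 5) in embryo, 0.253 ± 0.0537 (n = 5) in YS fluid and 0.545 ± 0.0594 (n = 5) in pregnant UF. These 3 groups did not overlap one another. The pregnant endometria, from 0.463 upwards, overlapped both pregnant UF and, through mare 5, the embryos, and the cyclic UF libraries, down to 0.255, overlapped the YS fluids. In contrast, the ratio of eca-miR-30d to eca-miR-30c averaged 1.65 in embryo and 1.66 in YS fluid, with overlapping ranges. The embryo and its YS fluid were thus alike in the mean balance of eca-miR-30d and eca-miR-30c and unlike in that of eca-miR-30e with either.

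**Figure D3:**
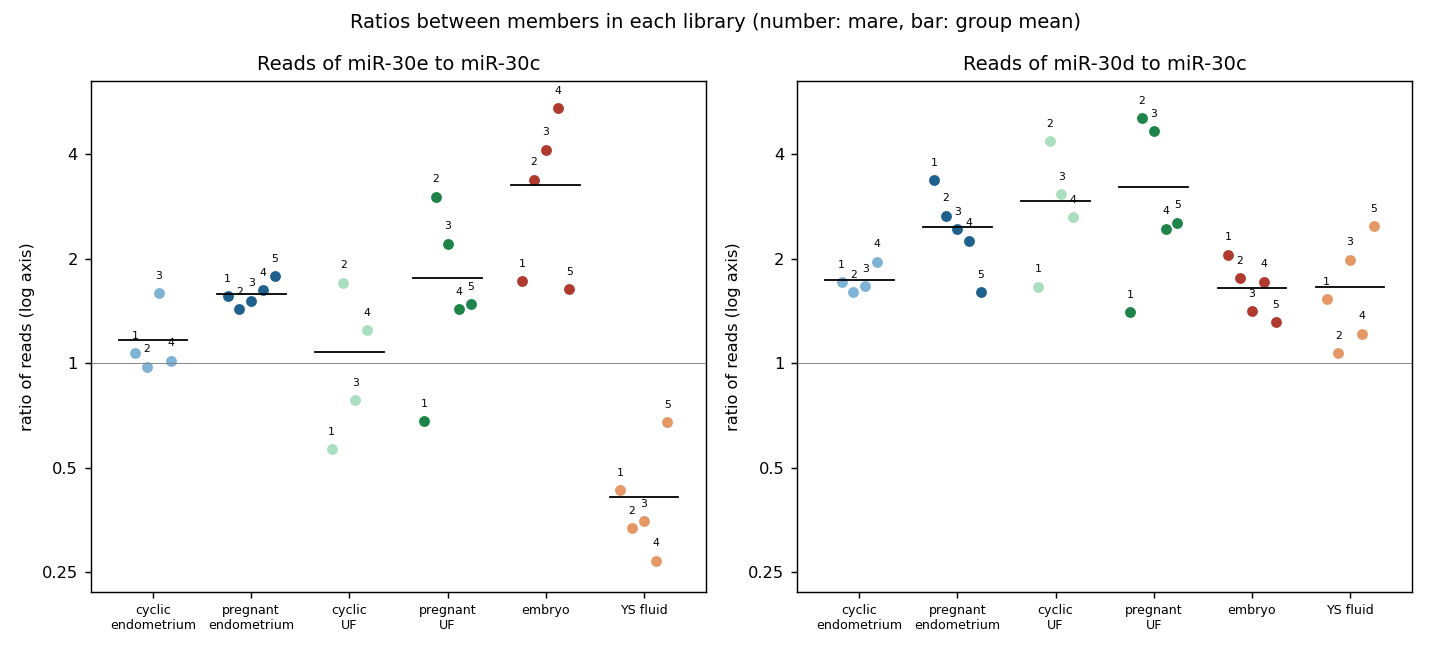
Ratio of eca-miR-30e to eca-miR-30c reads (left) and of eca-miR-30d to eca-miR-30c reads (right) in each library on a log axis, with the number of the mare at each point and a black bar at the group mean. The YS fluids lie at 0.270 to 0.677 on the left, below the embryos, pregnant endometria and pregnant UF, and on the right they overlap the embryos.

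Pregnancy was compared with the cyclic control cycle in the same mares, first in the endometrium. Of the 386 miRNAs tested, 3.37% were called, which required at least a 2-fold change and a false discovery rate (FDR, Benjamini-Hochberg) not above 0.05 in the quasi-likelihood test of edgeR, blocked by mare. None of the 4 members was called, none had an unadjusted p under 0.05, and none was called in any of 16 alternatives, DESeq2 and likelihood ratio tests included. Levels in the following are TMM-normalized CPM, scaled within the comparison.

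In endometrium eca-miR-30c moved from 5178 to 4301 CPM in mare 1, from 6414 to 5369 in mare 2, from 6620 to 4416 in mare 3 and from 6375 to 4537 in mare 4, the first value being the cyclic cycle. It was therefore lower in the pregnant cycle in 4 of 4 mares, while the pregnant library of mare 5, which has no cyclic counterpart and does not inform the blocked estimate, was the highest of all at 11019 CPM. The log2 fold change was -0.40 ± 0.22 (SE) with FDR = 0.375. With stepwise dispersion estimates and a likelihood ratio test the same difference (-0.41) had an FDR of 5.0e-06, still below a 2-fold change, and over all alternatives its FDR ranged from 5.0e-06 to 1. Across 16 alternatives the estimate lay between -0.64 and -0.05, and the member was called in none. The paper lists eca-miR-30c as downregulated in pregnant endometrium, the same direction, but as a call that was not reached here. Its methods give the same fold change and FDR thresholds, while its results name the FDR alone. It ran edgeR through the SARTools wrapper and does not name the edgeR test used for miRNAs, so the tests may differ.

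In endometrium eca-miR-30e moved from 5535 to 6718 CPM in mare 1, from 6267 to 7681 in mare 2, from 10554 to 6692 in mare 3 and from 6485 to 7380 in mare 4. It was higher in 3 mares and lower in mare 3, and the pregnant library of mare 5 stood at 19635 CPM. The log2 fold change was 0.03 ± 0.21 (SE) with FDR = 0.977, and its sign changed in 9 of 16 alternatives.

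For eca-miR-30d the pregnant cycle was higher in mares 1 and 2, from 8887 to 14508 CPM and from 10261 to 14310 CPM, and lower in mares 3 and 4, from 11057 to 10769.8 CPM and from 12498 to 10239.5 CPM. Its log2 fold change was 0.21 ± 0.20 (SE) with FDR = 0.778, and without mare 1 it was -0.01. The level of eca-miR-30b was lower in the pregnant cycle in 4 of 4 mares, by between 0.03 and 0.38 on the log2 scale, giving a log2 fold change of -0.17 ± 0.30 (SE) with FDR = 0.915. With library totals in place of TMM the 4 estimates were -0.41, -0.64, -0.02 and -0.21 for eca-miR-30b, eca-miR-30c, eca-miR-30d and eca-miR-30e. In that scaling the median of all miRNAs moved by -0.23.

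Within the family, eca-miR-30c took a smaller share in pregnant than in cyclic endometrium. The share of eca-miR-30c was 25.5%, 27.1%, 22.9% and 24.5% in the cyclic endometria of mares 1 to 4 and 16.5%, 19.1%, 19.7%, 19.9% and 22.3% in the pregnant endometria of mares 1 to 5. The groups did not overlap, though narrowly, with 22.3% in pregnant mare 5 against 22.9% in cyclic mare 3. The level of every member in mare 5 was the highest of all endometrial libraries. The ratio of eca-miR-30d to eca-miR-30c was 1.72 in the cyclic and 3.37 in the pregnant endometrium of mare 1, 1.60 and 2.67 in mare 2, 1.67 and 2.44 in mare 3 and 1.96 and 2.26 in mare 4. It was higher in pregnancy in 4 of 4 mares, while the pregnant library of mare 5 had a ratio of 1.60, level with the lowest cyclic one. Shares and ratios were chosen after their values had been seen, and whether the members' fold changes differ from each other was not tested. None of the 9 epithelial, 7 mesenchymal, 2 endothelial and 7 blood cell marker miRNAs was called between pregnant and cyclic endometrium.

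In UF, where 4.92% of the 305 miRNAs tested were called between pregnant and cyclic cycles, none of the 4 members was, and none had an unadjusted p under 0.05 or was called in any of 16 alternatives. For eca-miR-30c the level moved from 8737 to 8408 CPM in mare 1, from 3786 to 3098 in mare 2, from 4075 to 3510.0 in mare 3 and from 6240 to 4438 in mare 4. It was lower in pregnancy in 4 of 4 mares, as in endometrium, but the mares differed more from each other than their cycles did, and the log2 fold change was -0.26 ± 0.34 (SE) with FDR = 0.905. The level of eca-miR-30e was higher in 3 of 4 mares, at 4937, 6461, 3193 and 7780 CPM in the cyclic and 5728, 9344, 7755 and 6352 CPM in the pregnant cycles of mares 1 to 4. Its log2 fold change was 0.43 ± 0.34 (SE) with FDR = 0.729.

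The log2 fold change in UF was -0.65 ± 0.44 (SE) with FDR = 0.597 for eca-miR-30b and -0.15 ± 0.32 with FDR = 0.967 for eca-miR-30d. The ratio of eca-miR-30e to eca-miR-30d was higher in the pregnant cycle in 4 of 4 mares, with group means of 0.545 and 0.365 and overlapping ranges. The ratio of eca-miR-30d to eca-miR-30c differed between mares in both cycles. It was 1.66, 4.37, 3.07 and 2.63 in the cyclic and 1.40, 5.09, 4.67 and 2.44 in the pregnant UF of mares 1 to 4, so that mare 1 was the lowest and mare 2 the highest in either cycle. The pregnancy effect was compared between UF and endometrium with an interaction term, which was called for 1.69% of 415 miRNAs and for none of the 4 members. The difference of the effects, UF minus endometrium, ranged from -0.60 ± 0.47 (SE) for eca-miR-30b to 0.28 ± 0.40 for eca-miR-30e on the log2 scale, with FDR = 0.932 and FDR = 0.987.

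**Figure D4:**
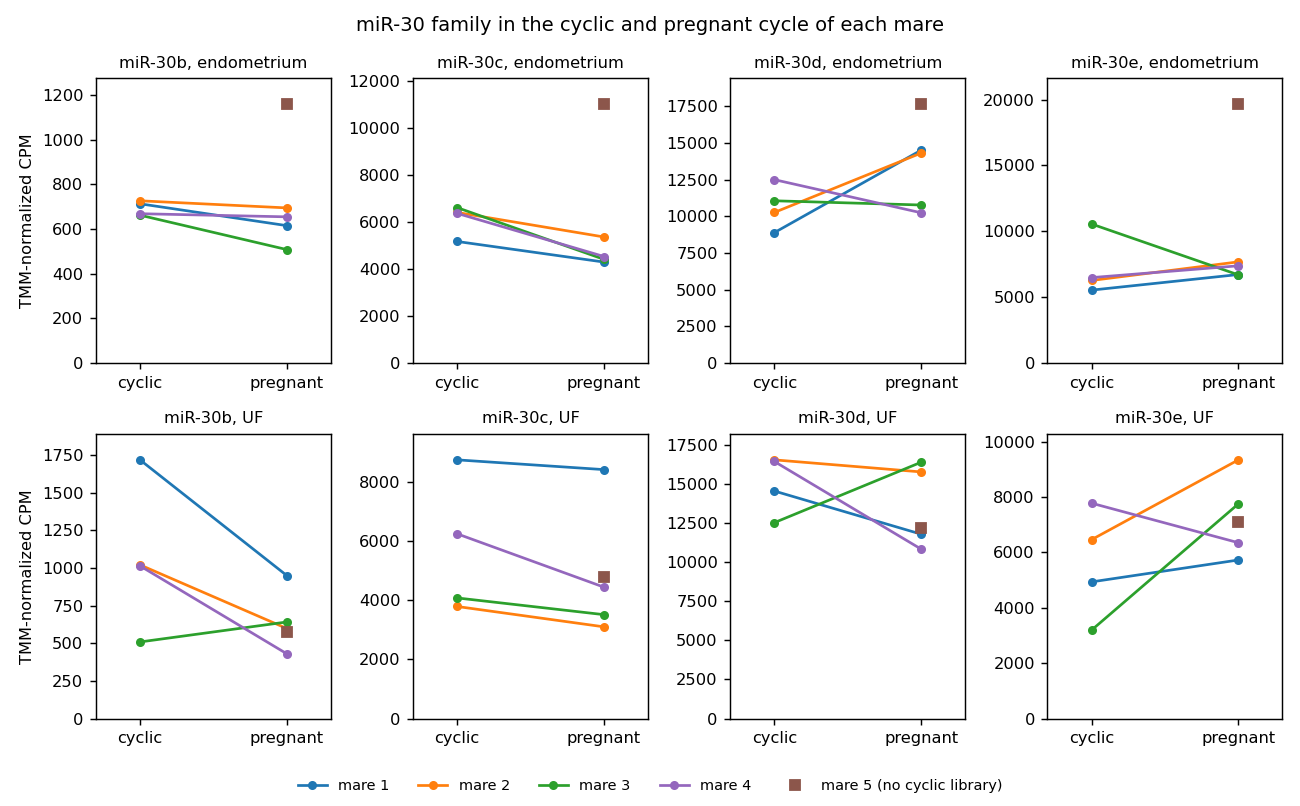
TMM-normalized CPM of each member in the cyclic and pregnant cycle of each mare, in endometrium (top) and UF (bottom), with lines joining the cycles of mares 1 to 4 and a square for mare 5, which has no cyclic library. The lines of miR-30c end lower in the pregnant cycle in 4 of 4 mares in both rows, and the square of mare 5 lies above all other endometrial points.

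Between the conceptus compartments eca-miR-30e differed the most. Of the 259 miRNAs tested between embryo and YS fluid, 35.1% were called, 22% higher in the embryo and 13.1% lower. In this comparison eca-miR-30e stood at 20835, 65156, 66980 and 90941 TMM-normalized CPM in the embryos of mares 1 to 4 and 35869 in that of mare 5. It stood at 6371, 4680, 5111, 3336 and 7217 CPM in YS fluid. The groups did not overlap, and eca-miR-30e was called 10.4-fold higher in the embryo (log2 fold change 3.38 ± 0.41 SE, FDR = 0.000179, higher in 5 of 5 conceptuses). By size of change it was 50th of the 259 miRNAs. The call held in 16 of 16 alternatives, with log2 fold changes between 2.68 with library totals and 3.64 without mare 5, and without the embryo and YS fluid of mare 1 it was 3.52.

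The other 3 members were not called between embryo and YS fluid. Their log2 fold changes were 0.97 ± 0.54 (SE) with FDR = 0.172 for eca-miR-30b, 0.38 ± 0.26 with FDR = 0.258 for eca-miR-30c and 0.37 ± 0.26 with FDR = 0.282 for eca-miR-30d. The last pair turned negative with library totals, at -0.26 and -0.30. Embryo and YS fluid differed in extraction kit, whose part in the eca-miR-30e difference was not tested.

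Between UF and endometrium none of the members was called. The log2 fold change of eca-miR-30e, UF over endometrium, was -0.40 ± 0.31 (SE) with FDR = 0.343 in pregnant mares and -0.64 ± 0.37 with FDR = 0.219 in cyclic mares. In those comparisons 33.7% of 359 and 30.8% of 328 miRNAs were called, and none of the 4 members had an unadjusted p under 0.05 or was called by another tool.

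The epithelial marker miRNAs called between embryo and YS fluid differed in the same direction as eca-miR-30e. Of the 9 on the list, the miR-200 and miR-183 clusters with miR-205, 6 were called higher in the embryo and none lower, with a median log2 fold change of 2.06 against 0.28 over all miRNAs tested. By library, their sum lay between 116225 and 194210 CPM in embryo and between 55206 and 132498 CPM in YS fluid. Both abundant members of the list behaved differently, eca-miR-200b with a log2 fold change of 1.36 ± 0.24 (SE, FDR = 0.00221) and eca-miR-200c with -0.86 ± 0.35 (FDR = 0.0709). Their part in the eca-miR-30e difference was not tested. Against the uterus, where eca-miR-30e was also called higher in embryo with TMM, the epithelial list was split. In embryo, 4 of the 9 were called higher and 3 lower than in pregnant endometrium. Against pregnant UF, 3 were called higher and 4 lower. None of the 8 embryonic stem cell miRNAs was called between embryo and YS fluid.

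Against the uterus, the conceptus comparisons of most members depended on scaling. With TMM, eca-miR-30e was called 2.03-fold higher in embryo than in pregnant endometrium (log2 fold change 1.02 ± 0.41 SE, FDR = 0.0398, higher in 4 of 5 mares), where 71.3% of 359 miRNAs were called and 28.7% were called higher. The call held in 8 of 16 alternatives and was lost with the mare as block (0.98) and without any of mares 1 to 4 (0.57 to 0.99). With library totals it was 2.31. Against pregnant UF, where 68.4% of 310 miRNAs were called and 29.7% were called higher, eca-miR-30e was called 2.12-fold higher in embryo (1.08 ± 0.40 SE, FDR = 0.0290, higher in 5 of 5 mares). That call was lost with the mare as block (0.97), without mare 3 (0.94) and without mare 4 (0.92).

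In the same comparisons eca-miR-30d was lower in the embryo with TMM and higher with library totals. Its log2 fold change was -0.51 ± 0.21 (SE, FDR = 0.0462) against pregnant endometrium and -0.80 ± 0.27 (FDR = 0.0232) against pregnant UF, below a 2-fold change in both, and 0.83 and 0.74 with library totals. It was lower in 5 of 5 mares with TMM. The log2 fold change of eca-miR-30c was 0.02 ± 0.30 (FDR = 0.946) against endometrium and 0.06 ± 0.31 (FDR = 0.877) against UF. That of eca-miR-30b was -0.23 ± 0.34 (FDR = 0.553) and -0.33 ± 0.41 (FDR = 0.498).

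In YS fluid eca-miR-30e was called lower than in both uterine compartments of the same mares with TMM. It was 5.41-fold lower than in pregnant endometrium (log2 fold change -2.43 ± 0.40 SE, FDR = 9.3e-05), where 53.1% of 341 miRNAs were called and 35.2% were called lower. It was 3.63-fold lower than in pregnant UF (-1.86 ± 0.36 SE, FDR = 0.000385), where 59.6% of 277 miRNAs were called and 36.1% were called lower. The groups did not overlap in either comparison. With library totals the estimates were -0.37 and -0.08 and neither call held. Against UF the call was also lost with edgeR's filterByExpr (-0.98), and it held in the other 14 of 16 alternatives.

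Of the other members, eca-miR-30b was called lower in YS fluid than in pregnant endometrium (-1.29 ± 0.41 SE, FDR = 0.0131), with a YS library at the detection floor, and not against UF (-0.91 ± 0.43 SE, FDR = 0.0803). The call against endometrium held in 10 of 16 alternatives. It was lost with DESeq2 (-0.47), RLE size factors (-0.49), filterByExpr (-0.65) and known miRNAs only (-0.51) and without mare 5 (-0.97), and the estimate was 0.75 with library totals. The log2 fold change of eca-miR-30d was -0.91 ± 0.32 (FDR = 0.0252) and -0.76 ± 0.32 (FDR = 0.0487), below a 2-fold change in both. Against endometrium its groups did not overlap with TMM, and it passed both thresholds in 5 of 16 alternatives. Its estimates there ran from -1.29 to 1.13, the highest being that with library totals. For eca-miR-30c the log2 fold change was -0.42 ± 0.35 (FDR = 0.337) against endometrium and 0.06 ± 0.31 (FDR = 0.874) against UF. With library totals eca-miR-30c and eca-miR-30d were instead called higher in YS fluid than in pregnant endometrium, at 1.62 and 1.13. In that scaling the median log2 fold change of all miRNAs moved by 2.00 in the comparison of YS fluid with pregnant endometrium, by 1.33 in that of embryo with pregnant endometrium and by -0.61 in that of embryo with YS fluid. In each scaling eca-miR-30e had the lowest estimate of the 4 members in both YS comparisons with the uterus and the highest in all 3 embryo comparisons. A scaling applies the same factor to every miRNA of a library, so this order could hardly change between scalings.

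**Figure D5:**
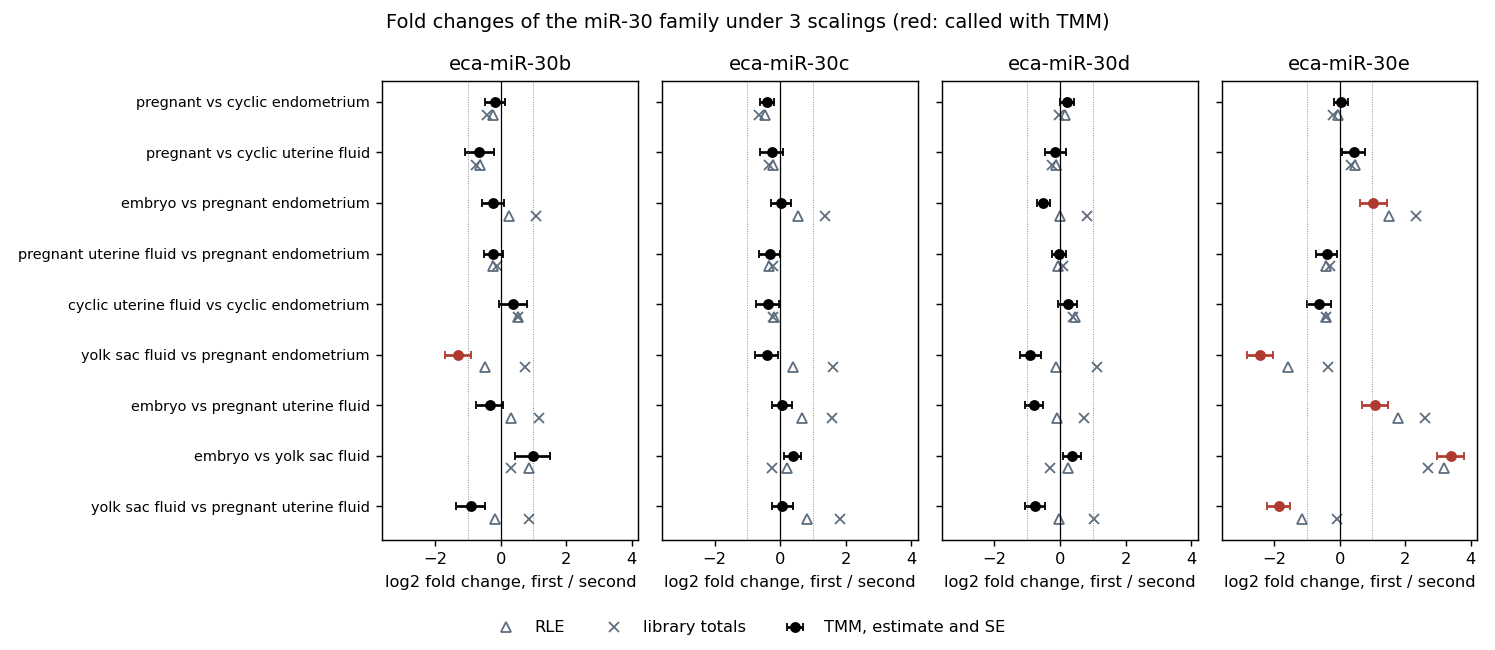
Log2 fold change of each member in the 9 comparisons, as the TMM estimate with its SE (circles, red where called) and the estimates with RLE size factors (triangles) and with library totals (crosses), with dotted lines at a 2-fold change. For eca-miR-30e the embryo to YS fluid estimates lie at 2.68 to 3.38 in all 3 scalings, whereas the crosses of the other comparisons between conceptus and uterus lie to the right of the circles for every member.

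The members varied among themselves across the 28 libraries, on log2 TMM-normalized CPM. The correlation was highest between eca-miR-30b and eca-miR-30d, the products of neighbouring genes, at r = 0.739. It was 0.288 between eca-miR-30c and eca-miR-30e, which share a locus only for one of the eca-miR-30c copies. The remaining 4 pairs lay between 0.281 and 0.545. Taken within groups, after subtraction of the group means, the highest was 0.714, between eca-miR-30d and eca-miR-30e, which are not neighbours. The neighbours eca-miR-30b and eca-miR-30d were then at 0.564, and eca-miR-30c and eca-miR-30e at 0.475. All members of a library share its depth and scaling factor, and the 28 libraries come from 5 mares, so these values are descriptions.

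Among 147 known miRNAs outside the family with at least 100 CPM on average, eca-miR-30b was most like eca-miR-502-3p (r = 0.887), eca-miR-200a (0.805) and eca-miR-141 (0.794) over the 28 libraries. Of these, eca-miR-200a and eca-miR-141 belong to the epithelial list. The nearest to eca-miR-30e were eca-miR-186 (0.808), eca-miR-96 (0.766) and eca-miR-200b (0.761), and eca-miR-96 and eca-miR-200b belong to that list too. The nearest to eca-miR-30d were eca-miR-502-3p (0.793), eca-miR-27b (0.789) and eca-miR-31 (0.781). For eca-miR-30c no candidate was above 0.528, the value of eca-miR-1388, followed by eca-miR-186 (0.515) and eca-miR-374a (0.509). Within the family, eca-miR-30c thus had the least similar partners and eca-miR-30b the most similar one.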

How the data were processed

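Small RNA libraries of 28 samples were prepared with the TailorMix kit from 100 ng of RNA with 18 PCR cycles. The authors trimmed reads with cutadapt 1.11, counted known and predicted miRNAs with miRPro against miRBase and EquCab2.0, and deposited raw counts per miRNA. How reads that match several miR-30 members were assigned is not given in the sources used here, so the split between members is uncertain to that extent.

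From these counts, edgeR (4.0.16, R 4.3.3) quasi-likelihood tests with TMM scaling were run on all known and predicted miRNAs with at least 1 CPM in as many libraries as the smaller group had. Significance required FDR of at most 0.05 and at least a 2-fold change. Pregnant and cyclic samples were blocked by mare, a pairing given by the study's use of each mare as its own control. The mean correlation of same-mare deviations was 0.170 in endometrium and 0.252 in UF, against -0.043 and -0.064 between different mares. The lowest same-mare value in endometrium was -0.107, so the pairing is only weakly visible in the counts. Tissues and fluids were compared without block. P-values of the blocked tests measure how the change between cycles varies among mares. Those of the unblocked tests measure the spread between the mares of a group and ignore that the groups share mares. The fits of pregnant against cyclic endometrium and of embryo against pregnant endometrium were tried on simulated counts. These had the same dispersion for every miRNA and no mare effect, so they do not stand for the real libraries. Alternatives were DESeq2 (1.42.0), likelihood ratio tests, RLE, library totals, other filters, known miRNAs alone, all libraries in a single fit, the block added or removed, and each mare left out. No pair of replicates agreed within counting noise. The named miRNAs were all family members and, for each, the 3 most correlated known miRNAs (log2 CPM, prior count 2), with up to 2 abundant miRNAs per marker list. The members, lists and tests were chosen with earlier results of these data known. The floor of 3 reads covers counting error only, whereas SD and SE values include the spread between libraries. The table of predicted precursors was not used, since its counts equalled those of the predicted mature miRNAs in 154 of 154 entries. Mature sequences are not shown here. Gene neighbourhood was read from RefSeq (TB-T2T), without coordinates.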

Additional observations from a re-analysis of the deposited data

Results flagged for a closer look

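Among the 54 combinations of a group and a family quantity examined, 4 held a library whose gap to the nearest other exceeded Dixon's 95% limit for its group, where chance gives about 1 in 20. In pregnant endometrium the library of mare 5 stood above the others for eca-miR-30c, with 9775 CPM against 3620 to 5373 CPM, and for eca-miR-30e, with 17418 CPM against 5486 to 8009 CPM. The same library had the highest sums of the mesenchymal (56910 CPM) and endothelial (4816 CPM) marker miRNAs, and their part in the eca-miR-30c and eca-miR-30e levels was not tested. In pregnant UF the library of mare 1 had the highest eca-miR-30b share of family reads, 3.54% against 1.95% to 2.32%. Mare 1 also had the highest eca-miR-30b share in cyclic UF, at 5.74%. In the embryos the library of mare 1 had the lowest family share of all reads, 4.33% against 8.45% to 9.79%, and the lowest sums of the embryonic stem cell (12019.6 CPM) and epithelial (116225 CPM) marker miRNAs, whose part in it was not tested.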

How the results depend on the processing

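Of the calls, that of eca-miR-30e between embryo and YS fluid held in every alternative run. With 0 members called between pregnant and cyclic endometrium or UF, the counts stayed at 0 in all alternatives, although all miRNAs called higher in endometrium went from 13 to 0 without the replicate block and in the fit of all libraries, and to 2 with known miRNAs only, and those called in UF from 4 higher and 11 lower to 0 and 0 without the block and with filterByExpr. In the following, values are log2 fold changes, and members are given without their eca prefix. The cause of the reversals was not tested beyond the shift of the median of all miRNAs given for library totals. For YS libraries of at most 14531 reads, eca-miR-30b is close to the detection floor.

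With library totals, miR-30d reversed to -0.021 and miR-30e to -0.21 between pregnant and cyclic endometrium. Between embryo and pregnant endometrium 3 members were called higher, and miR-30b (1.07) and miR-30d (0.83) reversed. Between embryo and pregnant UF 3 were called higher, and miR-30b (1.18) and miR-30d (0.74) reversed. In YS fluid against pregnant endometrium 2 were called higher and 0 lower, and miR-30b (0.75), miR-30c (1.62) and miR-30d (1.13) reversed. In YS fluid against pregnant UF 2 were called higher and 0 lower, and miR-30b (0.86) and miR-30d (1.04) reversed. In embryo against YS fluid miR-30c (-0.26) and miR-30d (-0.30) reversed, and in pregnant UF against endometrium miR-30d (0.090).

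With RLE factors miR-30e was -0.045 between pregnant and cyclic endometrium, miR-30b 0.26 and 0.31 in embryo against endometrium and UF, and miR-30c 0.40 in YS fluid against endometrium, where 1 member was called lower. DESeq2 gave -0.046, 0.26, 0.31 and 0.40 for the same reversals and also 1 call. With filterByExpr they were -0.042, 0.15, 0.066 and 0.26, again with 1 call, and in addition miR-30d was 0.088 in pregnant UF against endometrium, miR-30c and miR-30d were -0.056 and -0.064 in embryo against YS fluid, and in YS fluid against UF miR-30d was 0.14 with 0 called lower. With known miRNAs only, miR-30e was -0.038 between pregnant and cyclic endometrium, miR-30b 0.0078 and miR-30d 0.19 in pregnant UF against endometrium, miR-30c 0.37 in YS fluid against endometrium with 1 called lower, and miR-30b 0.12 in embryo against UF. Without a low-count filter miR-30e was -0.022 between pregnant and cyclic endometrium. In the fit of all libraries miR-30b was 0.0063 between pregnant and cyclic endometrium, miR-30c -0.30 in embryo against endometrium, where 0 were called higher, and miR-30d -0.040 in embryo against YS fluid. Both likelihood ratio tests called 0 higher in embryo against endometrium. Without a fold change threshold 1 member was called lower in embryo against endometrium, 1 against UF, and 2 in YS fluid against UF.

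With the replicate block added, 0 members were called higher in embryo against endometrium and 0 against UF. Without the replicate block, miR-30b was 0.067 between pregnant and cyclic endometrium, and the interaction became -0.20 for miR-30c and -0.023 for miR-30e. The block changed no other call of a member.

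Leaving out 1 mare at a time gave -0.0099 to 0.29 for miR-30d and -0.12 to 0.061 for miR-30e between pregnant and cyclic endometrium. In embryo against endometrium 0 to 1 members were called higher (0 without mare 1, 2, 3 or 4) and miR-30c was -0.26 to 0.11. In embryo against UF 0 to 1 were called higher (0 without mare 3 or 4), miR-30b was -0.48 to 0.30 and miR-30c -0.064 to 0.75. In YS fluid against endometrium 1 to 3 were called lower (1 without mare 5), and against UF miR-30c was -0.11 to 0.28. In pregnant UF against endometrium miR-30b was -0.46 to 0.041, miR-30c -0.66 to 0.017 and miR-30d -0.29 to 0.091. The interaction was -0.55 to 0.064 for miR-30d and -0.026 to 0.82 for miR-30e.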
